A study of Mus musculus with 18 samples.

Results

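Mouse mammary organoids treated with Torin in the arm that the file columns call J12 were compared with organoids of the same arm that received DMSO. The arm is 6 of the 18 libraries of the series, 3 with Torin and 3 with DMSO, chosen by the column names of the Torin count table. Organoids are small three-dimensional cultures, here grown from purified epithelial cells of the mammary gland in Matrigel droplets with EpiCult-B mouse medium. The cells came from wild type, nulliparous C57BL/6 mice of about 15 weeks, and all organoids were collected after 18 days of culture. The treated groups received 100 nM Torin, which the series design names as Torin 1, and the control groups received DMSO at 1:1000. Length of treatment is uncertain: sample titles give 12 days for this arm and the series design gives 6. The arm is therefore called J12, and nothing below depends on the number of days. The second arm, J6, has its own 3 DMSO and 3 Torin libraries and a batch tag in its labels that repeats the days of its titles. The 3 replicates of a group are not described further, so p-values measure the spread between these libraries, which may be technical.

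Torin 1 blocks the catalytic site of mTOR, a kinase that works in a pair of complexes. The first complex, built around Raptor, promotes protein, nucleotide and lipid synthesis, ribosome production and glycolysis when amino acids and growth factors are present, and restrains autophagy and the making of lysosomes. It also favours translation of the hypoxia factor HIF-1α. The second complex, built around Rictor, phosphorylates AKT. In the mammary gland the pathway is known for its part in growth of the epithelium and in lactation.

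The libraries held 28155243 to 28910688 counts with DMSO and 25558527 to 27360538 with Torin. Epithelial genes were high in all 6 libraries: Krt18, a luminal keratin gene, stood at 2742, 2592 and 2819 CPM (counts relative to library totals scaled by TMM) with DMSO and at 2178, 2158 and 2334 with Torin. Summed CPM of 22 basal myoepithelial markers was 4700 to 4900 with DMSO and 2870 to 3660 with Torin. Of 17 immune markers 16 stayed under 1 CPM in every library and 5 had no count, among them Cd3e, Adgre1 and Tyrobp. Endothelial markers were under 1 CPM for 9 of 12, adipocyte markers for 7 of 10 (Adipoq had no count) and mesothelial markers for 4 of 6. All 18 fibroblast markers had counts, with summed CPM of 2020 to 2230 with DMSO and 1930 to 2380 with Torin. The first principal component held 56.9% of the variance and separated the treatments. The third Torin library stood apart on the second component (14%), and ribosomal protein genes took 3.41% of its counts, against 2.36 and 2.39% in the other Torin libraries and 2.07 to 2.4% with DMSO. List counts that moved by over 1.5 times without a library are given with that library named. List counts below are read against the 14.5% of all genes tested that rose with Torin and the 16.2% that fell.

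Of 16946 genes tested, 2449 rose with Torin (14.5%) and 2737 fell (16.2%), 30.6% in all, at an adjusted p under 0.05 in edgeR's quasi-likelihood test. Only genes past that threshold are said to have risen or fallen. At least 2-fold rises numbered 540 (3.19%) and at least 2-fold falls 885 (5.22%). For 7679 genes (45.3%) the 3 DMSO and the 3 Torin values did not overlap. The median log2 fold change of all genes tested was 0.0198. Without the third Torin library 3040 genes rose and 3356 fell. In bulk RNA of this kind, fewer cells of a type and less RNA per cell cannot be told apart.

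Krt4 and Enpp2 had the largest rises when predicted genes, genes averaging under 5 CPM and genes with overlapping groups were left out. Enpp2 encodes autotaxin, the secreted enzyme that makes lysophosphatidic acid. It stood at 5.23, 5.8 and 5.48 CPM in the DMSO libraries and at 175, 183 and 167 with Torin (log2 4.99, SE 0.091; edgeR adjusted p = 7.45e-09). The groups lay far apart and the 3 libraries within each were close. Krt4, a keratin gene of stratified epithelia, was almost silent with DMSO, at 5 counts in the 3 libraries together against 1065 with Torin, a count ratio of 218 (95% counting interval 93.2 to 673). Its Torin values were uneven, at 10.6, 8.46 and 19.9 CPM. Slc6a2, which encodes the noradrenaline transporter, went from 1.46, 2.93 and 1.47 to 21.7, 21.1 and 25.3 CPM (log2 3.53, SE 0.24). Dio2, which encodes the deiodinase that activates thyroid hormone, went from 0.585, 0.884 and 1.36 to 10.9, 8.43 and 11.3 CPM (log2 3.43, SE 0.28).

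Of the other genes of largest rise, Cldn10, a tight junction claudin, stood at 11.3, 13.3 and 12.2 CPM with DMSO and 70.4, 68.3 and 75.2 with Torin (log2 2.54, SE 0.093). Timp4, a metalloproteinase inhibitor gene, rose by a log2 of 2.66 (SE 0.32), with the third DMSO library low (4.09, 4.88 and 1.47 CPM) and even Torin libraries (22.2, 23.3 and 20.7 CPM). Prkg1, the gene of a cGMP-dependent kinase (log2 2.47, SE 0.13), Fmo1, of a flavin monooxygenase (log2 2.44, SE 0.14), and Padi2, of a peptidylarginine deiminase (log2 2.53, SE 0.3), also rose. Penk, which encodes the precursor of enkephalins, was high in the third Torin library (8.65, 5.39 and 19.5 CPM) but above DMSO in all 3 (1.61, 2.3 and 2.06 CPM; log2 2.49, SE 0.43).

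**Figure D1:**
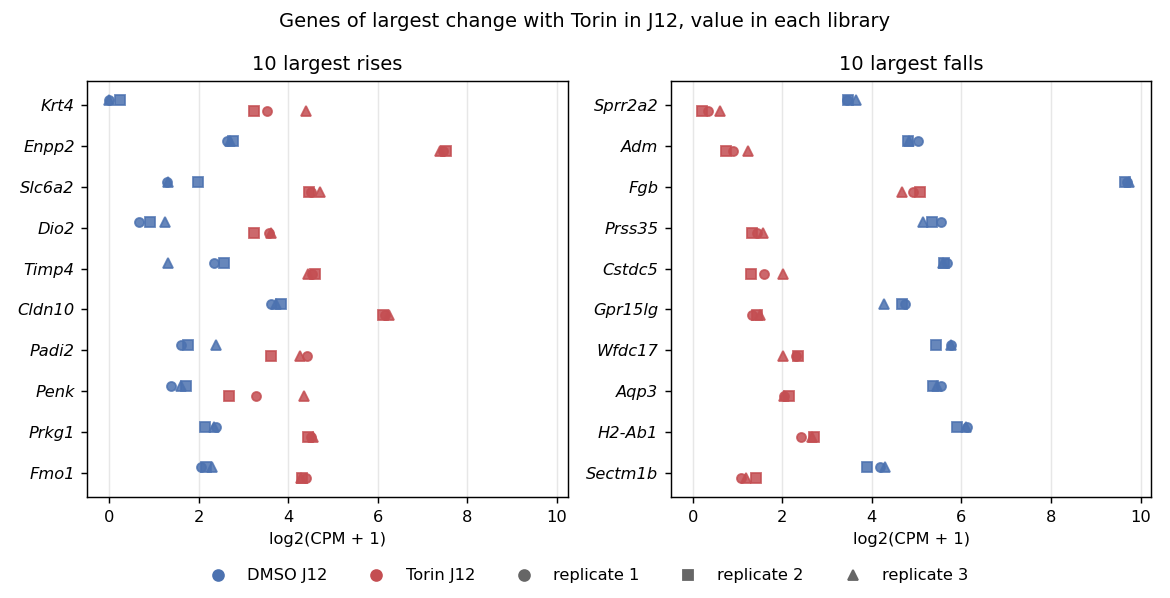
Level of the 10 genes of largest rise and the 10 of largest fall in each J12 library, as log2(CPM + 1) on the horizontal axis, with DMSO in blue and Torin in red and a marker shape per replicate. In all 20 genes the 3 Torin values lie on one side of the 3 DMSO values, as the rule that chose them requires. The same holds for 45.3% of all genes tested.

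Among the largest falls, Fgb, which encodes the beta chain of fibrinogen, stood at 825, 801 and 862 CPM with DMSO and 29.4, 32.8 and 24.4 with Torin (log2 −4.85, SE 0.12; edgeR adjusted p = 8.45e-08). The groups were more than an order of magnitude apart. Fgg, the gamma chain gene, named here after its values were seen, fell as well (log2 −3.42, SE 0.096). Adm, which encodes the vessel-widening peptide adrenomedullin, went from 31.8, 26.9 and 27.5 to 0.876, 0.683 and 1.34 CPM (log2 −4.88, SE 0.21). Aqp3, the gene of a water and glycerol channel, went from 45.9, 40.3 and 43 to 3.12, 3.42 and 3.07 CPM (log2 −3.75, SE 0.11). Prss35, a gene of the serine protease family, fell from 45.6, 39.4 and 34.1 to 1.71, 1.52 and 1.94 CPM (log2 −4.52, SE 0.16). H2-Ab1, which encodes the beta chain of an MHC class II molecule, fell from 68.8, 58.8 and 67.7 to 4.3, 5.5 and 5.29 CPM (log2 −3.69, SE 0.12).

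The remaining large falls were of 5 genes. Wfdc17, of the WAP family of secreted inhibitors, fell by a log2 of −3.75 (SE 0.15), Gpr15lg, a chemoattractant gene, by −3.76 (SE 0.18) and Sectm1b by −3.61 (SE 0.2). The cornified envelope gene Sprr2a2 (log2 −5.01, SE 0.31) and the stefin family gene Cstdc5 (log2 −4.47, SE 0.2) have near-identical neighbours, and how shared reads were assigned is not stated, so their single-gene values are uncertain.

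Of the genes of mTOR's complexes, Mlst8 rose, Rictor fell and the others did not pass. Mtor stood at 40.3, 36.4 and 41.7 CPM with DMSO and 41.4, 42.8 and 38.1 with Torin, groups that overlapped (log2 0.047, SE 0.087; edgeR adjusted p = 0.723). Rptor (Raptor; log2 0.12, SE 0.11) and Akt1s1, the gene of the substrate and inhibitor PRAS40 (log2 0.021, SE 0.082), did not pass either. Mlst8, a subunit of both complexes, rose from 21.4, 21.7 and 21.5 to 34.9, 36.4 and 34.7 CPM (log2 0.71, SE 0.081). Rictor fell by a log2 of −0.33 (SE 0.1), a call that was lost without the first or second DMSO library or the second Torin library. Deptor, which encodes an mTOR-binding inhibitor, had a log2 of −0.16 (SE 0.096; edgeR adjusted p = 0.237), but fell by 0.52 in limma on the deposited signal (adjusted p = 0.0254).

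Several genes that restrain the first complex fell. Ddit4 encodes REDD1, which acts on the TSC complex when oxygen or energy is short. It stood at 134, 130.1 and 147 CPM with DMSO and at 36, 29.4 and 36.1 with Torin, with a wide gap between the groups (log2 −2.02, SE 0.1; edgeR adjusted p = 2.51e-06). The sestrin genes Sesn1 (41.1, 41.2 and 42.9 to 19.3, 21.1 and 22.2 CPM), Sesn2 (log2 −1.02, SE 0.088) and Sesn3 (log2 −0.73, SE 0.078), which signal low leucine or stress, all fell. Castor1 and Castor2, of the arginine sensor family, fell too (log2 −1.48, SE 0.2, and log2 −1.25, SE 0.21). Among substrates, Eif4ebp1, the gene of a translation repressor, fell from 172, 169 and 191 to 116, 126 and 108 CPM (log2 −0.61, SE 0.087), while Rps6kb1, the S6 kinase gene, had a log2 of 0.20 (edgeR adjusted p = 0.0619) and passed only without the third Torin library and in limma on the deposited signal. In all, 4 of 45 tested mTOR pathway genes rose and 10 fell, with a median log2 of −0.00311, and 2 rose when any library other than the third Torin library was left out. Rragd, a Rag GTPase gene, had few counts (1.21, 0.99 and 1.36 CPM with DMSO, 2.7, 2.32 and 1.34 with Torin; log2 0.84, SE 0.33) and did not pass. It did so without the third Torin library and in the fit of all 12 libraries.

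Insulin and FOXO feedback genes, which follow AKT activity, were mixed: 2 of 24 rose and 9 fell (median log2 −0.185). Irs1, the gene of an insulin receptor substrate, rose (log2 1.46, SE 0.14), while Irs2 did not pass (log2 −0.32, SE 0.17). Sod2, of a mitochondrial superoxide dismutase, went from 258, 259.9 and 258 to 609, 626 and 513 CPM (log2 1.17, SE 0.091). The falls included Txnip, of a regulator of glucose uptake (log2 −1.36, SE 0.12) and Pik3ip1, of a PI3K inhibitor (log2 −1.17, SE 0.077). Without the third Torin library 4 rose.

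Glycolysis genes fell. Of 21 genes of the pathway, glucose uptake and lactate export, 19 fell and none rose, 13 of them at least 2-fold, with a median log2 of −1.14. Summed CPM of the list was 23100, 22300 and 22200 in the DMSO libraries and 11600, 10700 and 12300 with Torin. Pfkfb3, the gene of the enzyme that makes the activator of phosphofructokinase, stood at 82.4, 77.2 and 84.8 CPM with DMSO and 18.1, 15.8 and 17.5 with Torin (log2 −2.25, SE 0.086; edgeR adjusted p = 5.4e-07). Slc16a3, the lactate exporter MCT4, went from 187, 174 and 202 to 46.4, 41.4 and 39.4 CPM (log2 −2.15, SE 0.093). Pgk1, of phosphoglycerate kinase, went from 965, 968 and 1007 to 346, 309 and 334 CPM (log2 −1.57, SE 0.079), and Pfkp, a phosphofructokinase gene, from 234, 229.6 and 213 to 84.2, 82.4 and 89.6 CPM (log2 −1.40, SE 0.077). The groups were separate for each of these genes. Gapdh (log2 −1.48, SE 0.1), Aldoa (log2 −1.32, SE 0.086) and Ldha (log2 −1.30, SE 0.13) fell beside them, and the glucose transporter gene Slc2a1 fell less (log2 −0.96, SE 0.1). Aldoc (log2 −0.19, SE 0.14) and Pfkfb4 (log2 −0.32, SE 0.21) did not pass.

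Hypoxia response genes outside glycolysis fell in 24 of 29 cases and rose in 1, with 19 falls of at least 2-fold and a median log2 of −1.19. Their summed CPM was 6630, 6630 and 6420 with DMSO and 2540, 2400 and 2490 with Torin. Ero1a, of an oxidase of the endoplasmic reticulum, stood at 1438, 1508 and 1400.5 CPM with DMSO and at 142, 119 and 149 with Torin (log2 −3.40, SE 0.11; edgeR adjusted p = 1.98e-07). Bnip3, of a mitophagy receptor, went from 469.8, 463 and 440.5 to 103, 81.2 and 82.6 CPM (log2 −2.36, SE 0.11). Egln3, a prolyl hydroxylase that marks HIF for destruction and is itself a HIF target, went from 578, 542 and 576 to 129.5, 128 and 119 CPM (log2 −2.17, SE 0.078). Ndufa4l2, a mitochondrial protein gene, went from 140.5, 124 and 147 to 20.2, 14.1 and 22.5 CPM (log2 −2.86, SE 0.16). Carbonic anhydrase genes fell as well, Car9 by a log2 of −2.56 (SE 0.15) and Car12 by −1.06 (SE 0.087), and so did Vegfa, of the vessel growth factor (log2 −1.24, SE 0.26). The factors themselves moved less: Hif1a had 182, 215 and 169 CPM with DMSO and 157, 161 and 228 with Torin, overlapping groups with the third Torin library highest (log2 −0.05, SE 0.15), and Epas1, of HIF-2α, fell (log2 −0.34, SE 0.07). Stc2, of stanniocalcin 2, was the rise (log2 0.50, SE 0.099). Without the third Torin library 26 fell and 1 rose.

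**Figure D2:**
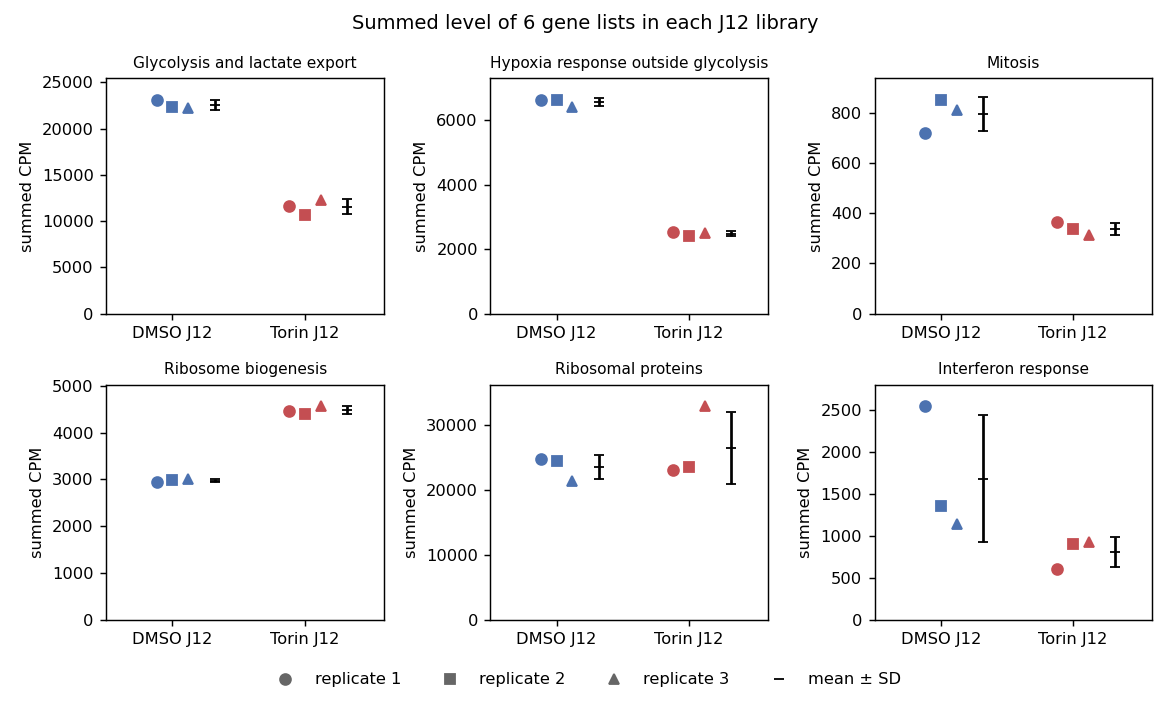
Summed CPM of the tested members of 6 gene lists in each J12 library, with DMSO in blue, Torin in red, a marker shape per replicate and the mean ± SD of 3 libraries in black. Glycolysis, hypoxia and mitosis are lower in every Torin library and ribosome biogenesis is higher, the third Torin library alone is high in ribosomal proteins, and the first DMSO library is the highest in the interferon response.

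Promoter windows from RefSeq (GRCm38.p6), 250 bases before to 50 bases after each start, are given for genes of these lists. ACGTG is a form of the core at which HIF binds DNA, and other forms of that core were not searched. Of the 30 genes of the hypoxia list 24 had a window. ACGTG, searched on both strands, stood in 47.1% of 34 windows of the glycolysis list and in 60% of 30 windows of the hypoxia list. The lysosome list, described below, held it in 42% of 50 windows, so a raised share was not particular to these lists. All 32851 windows held it in 19.6% of cases, and the 14686 windows of genes tested in J12 in 24.4%. Base composition differed too, with median GC of 61.2% in glycolysis, 64% in hypoxia, 52.7% in all windows and 60.3% in windows of tested genes. Among named genes of the lists, Adm and Pfkp had no ACGTG in their windows, and both fell. The windows below belong to Pgk1 (chrX:106186850-106187149, plus strand), Slc16a3 (chr11:120948817-120949116, plus strand), Egln3 (chr12:54203825-54204124, minus strand) and Bnip3 (chr7:138909457-138909756, minus strand), 5′ to 3′, with ACGTG or its reverse complement CACGT in capitals. They start at −150 and −131 from the transcription start in Pgk1, at −27 and −14 in Slc16a3, at −229 in Egln3 and at −108 and −107 in Bnip3, where the overlapping matches form CACGTG. A match is a description of the letters and not a site, and the shares were computed without regard to the Torin response.
Pgk1: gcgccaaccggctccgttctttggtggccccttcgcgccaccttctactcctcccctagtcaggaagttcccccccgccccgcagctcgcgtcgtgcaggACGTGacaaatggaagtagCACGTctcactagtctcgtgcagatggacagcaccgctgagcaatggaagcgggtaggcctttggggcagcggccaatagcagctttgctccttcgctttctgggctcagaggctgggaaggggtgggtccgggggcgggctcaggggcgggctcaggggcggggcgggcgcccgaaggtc
Slc16a3: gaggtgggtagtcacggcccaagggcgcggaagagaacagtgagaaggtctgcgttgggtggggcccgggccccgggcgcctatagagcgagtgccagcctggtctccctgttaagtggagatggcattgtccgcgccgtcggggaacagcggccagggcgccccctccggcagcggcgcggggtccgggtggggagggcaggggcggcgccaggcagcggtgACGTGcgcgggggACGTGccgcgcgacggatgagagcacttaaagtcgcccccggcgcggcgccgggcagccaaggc
Egln3: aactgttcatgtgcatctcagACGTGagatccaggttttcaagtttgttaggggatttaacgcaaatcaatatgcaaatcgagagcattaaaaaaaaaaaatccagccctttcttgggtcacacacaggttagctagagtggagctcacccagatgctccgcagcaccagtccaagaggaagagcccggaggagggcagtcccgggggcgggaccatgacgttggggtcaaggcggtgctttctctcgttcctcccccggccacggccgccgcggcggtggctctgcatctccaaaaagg
Bnip3: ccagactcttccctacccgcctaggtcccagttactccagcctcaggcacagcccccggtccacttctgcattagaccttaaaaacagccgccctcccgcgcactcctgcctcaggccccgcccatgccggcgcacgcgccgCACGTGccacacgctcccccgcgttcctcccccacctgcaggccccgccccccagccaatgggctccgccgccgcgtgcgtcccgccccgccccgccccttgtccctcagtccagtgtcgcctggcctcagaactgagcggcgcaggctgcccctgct

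Ribosome biogenesis genes rose almost throughout. Of 46 genes for making ribosomes, 41 rose and none fell, with a median log2 of 0.597. In 42 of them the groups did not overlap, against 45.3% of all genes tested. Summed CPM was 2950, 2980 and 3000 with DMSO and 4470, 4400 and 4570 with Torin. Rrp12, of a factor that exports ribosomal subunits, stood at 9.1, 9.83 and 9.63 CPM with DMSO and 27.4, 29.1 and 26.2 with Torin (log2 1.53, SE 0.1; edgeR adjusted p = 1.28e-05). Grwd1, of a histone- and ribosome-binding protein, went from 41.8, 37.5 and 41.9 to 88.6, 88.6 and 82.7 CPM (edgeR adjusted p = 1.91e-05). Tsr1 (log2 0.94, SE 0.074) and Wdr12 (log2 0.95, SE 0.078), of factors in subunit maturation, and the RNA polymerase I genes Polr1a (log2 0.85, SE 0.079) and Polr1b (log2 1.09, SE 0.091) rose too. Nop14, Noc4l, Pes1, Nob1 and Rrn3 did not pass, with log2 values from 0.13 to 0.46, although Pes1 and Rrn3 did without the third Torin library. Rrn3 also passed in DESeq2 and without a low-count filter.

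Ribosomal protein genes depended on a single library. Of 79 genes 13 rose and none fell (median log2 0.142), while without the third Torin library 12 rose and 15 fell (median log2 −0.0652). Their summed CPM was 24700, 24500 and 21400 with DMSO and 23000, 23500 and 32900 with Torin, so only the third Torin library was above DMSO. Rises also numbered 6 without the second or without the third DMSO library. Rpsa stood at 226, 219 and 226 CPM with DMSO and 320.2, 340.2 and 327 with Torin (log2 0.55, SE 0.071), and Rplp1 at 252, 229 and 239.8 and 377, 427 and 351 (log2 0.68, SE 0.091), both separate in all libraries. In Rps12 the third Torin library was the lowest of the Torin group (67.4, 69.3 and 83.9 CPM with DMSO, 159, 171 and 101 with Torin).

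Among translation factors 10 of 33 rose and 3 fell (median log2 0.146). Eef2, of the elongation factor that moves the ribosome along, went from 946, 930.1 and 930.1 to 1344, 1505 and 1315 CPM (log2 0.57, SE 0.081), and Eif4g1, of the cap-binding scaffold, from 228, 244 and 254 to 344, 342 and 325 CPM (log2 0.48, SE 0.076). Eif4a2, of a helicase of the cap-binding complex, fell (log2 −0.74, SE 0.14). Without the third Torin library 12 rose and 7 fell, and without the third DMSO library 1 fell.

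Genes of nucleotide synthesis rose in 12 of 18 cases and fell in 3, with a median log2 of 0.499. Cad, of the enzyme that starts pyrimidine synthesis, stood at 23.9, 19.5 and 19.6 CPM with DMSO and 41.8, 48.9 and 38.1 with Torin (log2 1.03, SE 0.12), and Umps, of the enzyme that ends it, at 45, 45.1 and 43.3 and 80, 76.4 and 75.1 (log2 0.80, SE 0.071). Gart, of purine synthesis, went from 92.5, 86.2 and 99.1 to 176, 178 and 159 CPM (log2 0.88, SE 0.083). The clearest fall was of Mthfd1l, of mitochondrial folate metabolism (log2 −1.12, SE 0.1), and Mthfd2 of the same pathway, counted with the ATF4 targets, fell as well (log2 −1.34, SE 0.14).

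**Figure D3:**
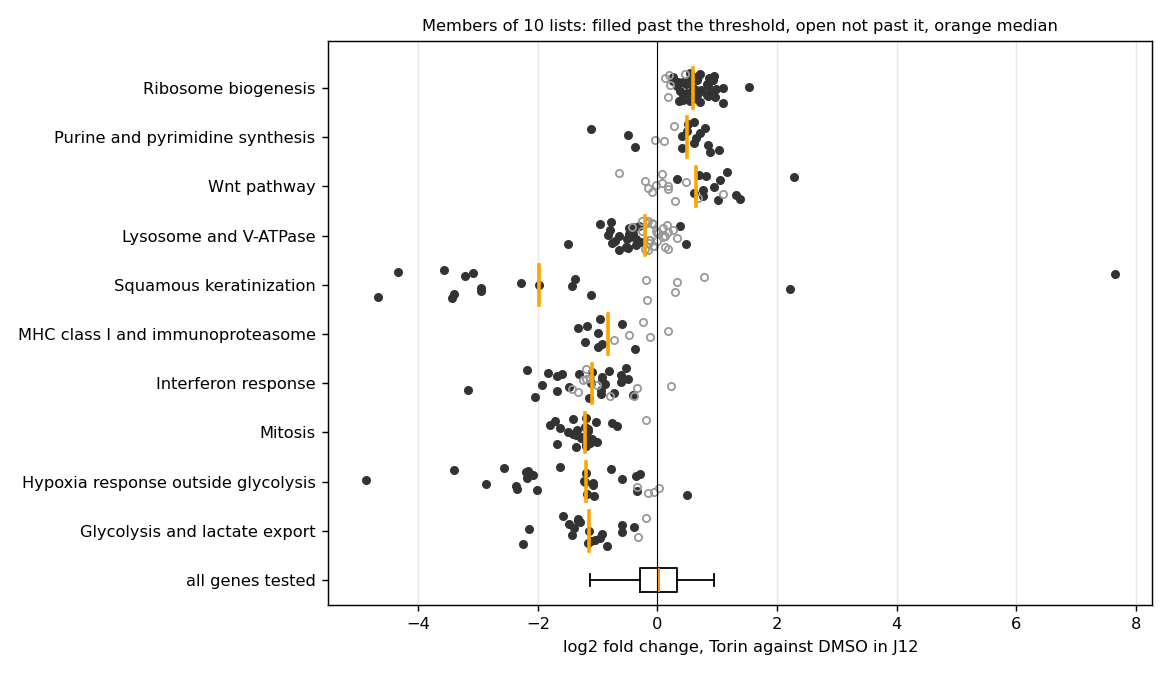
Log2 fold change (Torin against DMSO in J12, horizontal axis) of every tested member of 10 gene lists, filled where past the threshold and open where not, with the list median in orange. The box for all genes tested spans the quartiles, with whiskers at the 5th and 95th percentiles (−1.13 and 0.949).

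Mitosis genes fell in 26 of 27 cases, 24 of them at least 2-fold, with a median log2 of −1.21. Their summed CPM was 719, 851 and 811 with DMSO and 363, 338 and 315 with Torin. Aurka, of a spindle kinase, stood at 16.3, 19.1 and 19.1 CPM with DMSO and 4.84, 5.31 and 5.58 with Torin (log2 −1.79, SE 0.13; edgeR adjusted p = 2.16e-05). The cyclin B genes Ccnb1 (48.7, 52.9 and 55.7 to 21.3, 21.1 and 17 CPM; log2 −1.41, SE 0.11) and Ccnb2 (41.5, 48.3 and 42.3 to 14.3, 15.6 and 11.3 CPM; log2 −1.68, SE 0.13) fell, as did Mki67, of the proliferation antigen Ki-67 (log2 −1.19, SE 0.12). Foxm1 did not pass (log2 −0.19, SE 0.44).

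Replication genes did not move together. Of 31 S phase genes 6 rose and 6 fell (median log2 −0.179). Tyms, of thymidylate synthase, went from 20.9, 24.9 and 23.8 to 48, 51.7 and 46.9 CPM (log2 1.08, SE 0.093) and Mcm7, of the replication helicase, from 43.6, 46.5 and 44.3 to 69.2, 70.3 and 81.7 (log2 0.72, SE 0.086). E2f1, of a factor that drives S phase entry, fell from 18.6, 20.4 and 22 to 7.09, 6.6 and 6.14 CPM (log2 −1.62, SE 0.12), and Tk1, of thymidine kinase, from 72.9, 72.2 and 67.6 to 33.6, 28.1 and 36.8 CPM (log2 −1.11, SE 0.1). Of 18 genes of G1 control 4 rose and 5 fell. Cdkn1a, which encodes the cell cycle inhibitor p21, went from 219, 195 and 229 to 93.7, 93.1 and 105 CPM (log2 −1.14, SE 0.09) and Cdkn2d from 44, 40.6 and 48 to 15.3, 16 and 13.6 CPM (log2 −1.56, SE 0.1), while Ccnd1, of cyclin D1, had a log2 of 0.05 (SE 0.072) and Myc rose (log2 0.53, SE 0.091).

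Of 23 p53 targets 10 fell and 1 rose (median log2 −0.194), and 13 fell and 3 rose without the third Torin library. Btg2, of an antiproliferative protein, went from 200.3, 183 and 214 to 94.2, 99.7 and 91.1 CPM (log2 −1.07, SE 0.083), and Pmaip1, of the cell death protein Noxa, from 38.7, 40.3 and 50 to 19.3, 23.3 and 22 CPM (log2 −0.998, SE 0.12). Mdm2, which encodes the ligase that degrades p53, did not pass (log2 −0.17, SE 0.089) but fell without the third Torin library, and Bax, of a pore-forming death protein, rose (log2 0.64, SE 0.088). Within the BCL2 family 5 of 15 rose and 4 fell, with Bcl2, of the survival protein, up from 17.1, 19.1 and 21.4 to 45.4, 41.3 and 43 CPM (log2 1.17, SE 0.1) and Bid, of a death-promoting protein, from 89.2, 86.2 and 89.2 to 172, 164 and 155 CPM (log2 0.89, SE 0.073).

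Lysosome genes fell in 22 of 51 cases and rose in 2, with a median log2 of −0.213 and 1 fall of at least 2-fold. That fall was of Lipa, the acid lipase gene, at 132, 124 and 100.3 CPM with DMSO and 37.4, 42.4 and 46.2 with Torin (log2 −1.50, SE 0.12; edgeR adjusted p = 3.24e-05). The hydrolase genes Ctsh (300.1, 292 and 297 to 155, 166 and 194 CPM; log2 −0.79, SE 0.093) and Arsa (log2 −0.78, SE 0.1) fell. Psap, of a saposin precursor, fell too (log2 −0.72, SE 0.088), while Ctsd (log2 0.17, SE 0.077) and Lamp1 (log2 0.12, SE 0.11) did not pass. Gusb (log2 0.47, SE 0.085) and Atp6v0a1, a proton pump subunit gene (log2 0.37, SE 0.089), rose, Atp6v0a1 not without the first or the third DMSO library. Of the factors that drive lysosomal genes, Tfeb (log2 −0.21, SE 0.16), Tfe3 (log2 0.26, SE 0.089) and Mitf (log2 −0.081, SE 0.15) did not pass. Tfe3 did with a floor of 1 CPM in 3 libraries and without the third Torin library. Without that library 26 lysosome genes fell and 4 rose, and without the first or the third DMSO library 1 rose. Autophagy genes fell in 9 of 36 cases and rose in 2 (median log2 −0.0853), but 4 fell and 1 rose without the first or the second DMSO or the second Torin library, 5 without the third DMSO library, and 14 fell without the third Torin library. Map1lc3a and Gabarapl1, of proteins that coat autophagosomes, fell (log2 −0.62, SE 0.086, and log2 −0.47, SE 0.069), Map1lc3a no longer in the fit of all 12 libraries. Sqstm1, of the cargo receptor p62, was uneven among Torin libraries (238, 232 and 306 CPM, with DMSO at 296, 305 and 268) and did not pass (log2 −0.16, SE 0.11), but fell without the third Torin library (log2 −0.30).

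CACGTG, the core of the element bound by TFEB and TFE3 and a palindrome that also holds ACGTG, stood in 32% of 50 windows of the lysosome list (40 of its 52 genes had a window), in 7.15% of all windows and in 9.42% of windows of genes tested in J12. Median GC of the lysosome windows was 57.8%, and these shares too were computed without regard to the Torin response. The window of Arsa (chr15:89477375-89477674, minus strand, RefSeq GRCm38.p6) holds it at −16, shown in capitals, while those of Lipa and Psap do not hold it.
Arsa: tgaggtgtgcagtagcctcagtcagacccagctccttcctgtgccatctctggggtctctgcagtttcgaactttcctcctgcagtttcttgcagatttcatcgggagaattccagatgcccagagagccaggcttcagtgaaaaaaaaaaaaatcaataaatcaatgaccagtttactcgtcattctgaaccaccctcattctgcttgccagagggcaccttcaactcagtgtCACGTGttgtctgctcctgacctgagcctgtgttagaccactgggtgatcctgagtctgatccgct

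More lipid genes fell than rose. In cholesterol synthesis and uptake 13 of 25 fell and 2 rose (median log2 −0.312). Hmgcs1, of the synthase at the start of the pathway, went from 188, 184 and 191 to 117, 113 and 127 CPM (log2 −0.66, SE 0.075) and Sc5d, of a late desaturase, from 192, 191 and 181 to 100.4, 92 and 114 CPM (log2 −0.88, SE 0.09). Sqle, of squalene epoxidase, rose (log2 0.43, SE 0.092). In fatty acid synthesis 9 of 23 fell and 1 rose (median log2 −0.178). Me1, of malic enzyme, went from 113, 116 and 106 to 25.4, 30.6 and 31.8 CPM (log2 −1.93, SE 0.098), and Acss2, of an acetyl-CoA synthetase, from 29.5, 30.2 and 33.9 to 13.2, 14.2 and 13.4 CPM (log2 −1.20, SE 0.099). Fasn, of fatty acid synthase, was the rise (log2 0.25, SE 0.085), a call that was lost when any library other than the third Torin library was left out, and 3 rose without that library.

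Amino acid supply and ATF4 targets fell in 15 of 35 cases and rose in 2 (median log2 −0.311), and fell in 20 and rose in 5 without the third Torin library, while 1 rose without any other library except the third DMSO library. Psat1, of serine synthesis, went from 33.2, 36.9 and 39 to 12.2, 14.1 and 15.8 CPM (log2 −1.37, SE 0.12) and Trib3, of a pseudokinase, from 141, 137 and 143 to 82.6, 79.9 and 74.6 CPM (log2 −0.83, SE 0.073). Phgdh, of the first step of serine synthesis, rose (log2 0.59, SE 0.085), and Atf4 itself did not pass (log2 0.025, SE 0.086). NRF2 targets fell in 8 of 22 cases and rose in 3, with Nqo1, of a quinone reductase, down from 241, 234 and 225 to 136, 133 and 135 CPM (log2 −0.79, SE 0.07) and Gsr, of glutathione reductase, up (log2 0.91, SE 0.16; not past the threshold in the fit of all 12 libraries). Without the first or the third DMSO library 5 fell. In the unfolded protein response Xbp1, of its main transcription factor, fell from 2610.0, 2693 and 2751 to 1390.0, 1573 and 1374 CPM (log2 −0.89, SE 0.084), 3 of 21 rose (6 rises and 2 falls without the third Torin library) and no other fell.

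Calls of respiratory chain and proteasome genes moved with single libraries. Of 36 nuclear genes of oxidative phosphorylation 6 rose and 1 fell, but without the third Torin library 8 fell, without the other Torin libraries or the first or second DMSO library none fell, and 2 or 3 rose without any of the DMSO libraries or the second Torin library. The mitochondrially encoded genes had 1 rise and 4 falls among 13, with a median log2 of −0.357 and 12 negative values. There were 11 falls without the third Torin library and 2 without the first or the second DMSO library. No rise remained when any library other than the third Torin library was left out. Proteasome genes had 5 rises and no fall among 31, with 8 falls without the third Torin library and 2 or 3 rises when any other library was left out. Psmc4, of an ATPase of the regulatory particle, was separate in all libraries (137, 143 and 140.1 CPM with DMSO, 203, 203 and 198 with Torin; log2 0.52, SE 0.068).

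**Figure D4:**
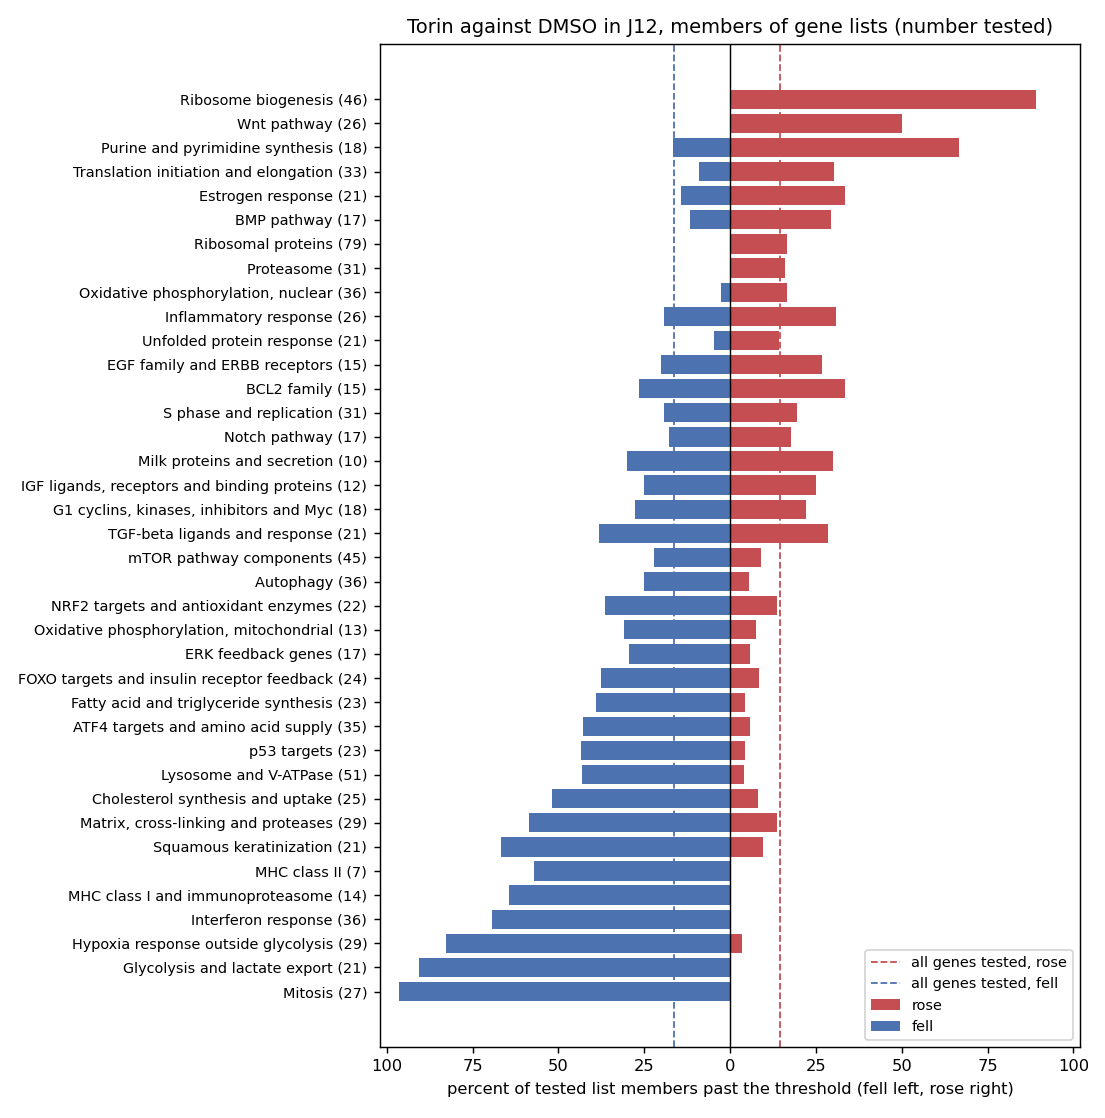
Share of tested members that rose (right, red) and fell (left, blue) with Torin in J12 for 38 gene lists, with the number tested in brackets and dashed lines at the shares of all genes tested, 14.5% and 16.2%. Mitosis, glycolysis and hypoxia reach farthest to the left and ribosome biogenesis farthest to the right.

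Interferon response genes fell in 25 of 36 cases and none rose, with a median log2 of −1.1, but the extent rested on a few libraries. Summed CPM was 2550, 1360 and 1140 in the DMSO libraries and 607, 900 and 931 with Torin, so the first DMSO library was the highest. Without it 13 fell (median log2 −0.589), without the first Torin library 13 fell as well (median log2 −0.819), and without the second Torin library 16 fell. Dhx58, of a cytoplasmic RNA sensor, stood at 38.3, 21.6 and 17.3 CPM with DMSO and 6.4, 7.78 and 6.04 with Torin (log2 −1.93, SE 0.27; edgeR adjusted p = 0.000786). Oas3, of an antiviral oligoadenylate synthetase, stood at 21.6, 8.13 and 6.84 and 1.64, 1.02 and 1.38 CPM (log2 −3.17, SE 0.45). In both, the groups were separate although DMSO varied. Irf7, of an interferon-inducing factor, fell (log2 −2.19, SE 0.41), and Ifit1 (log2 −1.24, SE 0.55) and Isg15 (log2 −1.12, SE 0.44) did not pass. Both did without the third Torin library and without a low-count filter, and Isg15 also without the third DMSO library.

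Antigen presentation genes fell too. Of 14 genes of MHC class I and the immunoproteasome, 9 fell and none rose (median log2 −0.821), and 8 to 11 fell when any library was left out. H2-D1, a classical class I gene, went from 2793, 2348 and 2318 to 1182, 1221 and 1342 CPM (log2 −0.99, SE 0.099), H2-K1 from 721, 609 and 539 to 282, 313 and 345 CPM (log2 −0.99, SE 0.12) and Psmb8, of an immunoproteasome subunit, from 218, 185 and 168 to 75.3, 80.9 and 94.8 CPM (log2 −1.18, SE 0.12). Class I genes are closely similar in sequence, which leaves single-gene values uncertain. Of 7 tested class II genes 4 fell, with H2-Ab1 given above and the peptide-loading gene H2-DMb1 down from 50.9, 51.4 and 46.2 to 29.6, 30.6 and 27.1 CPM (log2 −0.77, SE 0.086), and 2 fell without the first DMSO or the first or second Torin library. H2-Aa, the partner chain of H2-Ab1, was too low to be tested. Beside these results, the macrophage marker Cd68 fell from 9.87, 7.35 and 10.8 to 1.33, 1.44 and 1.59 CPM (log2 −2.68, SE 0.21), while Ptprc, the gene of the pan-leukocyte protein CD45, had 0.365, 0.247 and 0.331 CPM with DMSO and 0.381, 0.266 and 0.388 with Torin. Summed CPM of the 17 immune markers was 8.66 to 13 with DMSO, most of it from Cd68, and 2.62 to 3.14 with Torin. Of these markers 3 were tested, and Cd68 alone fell. The part of immune cells in the falls of antigen presentation genes was not tested.

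Inflammatory genes went both ways, with 8 rises and 5 falls among 26 (median log2 0.174). Csf3, of the neutrophil growth factor G-CSF, rose from 47, 52.3 and 46 to 178, 172 and 190.3 CPM (log2 1.89, SE 0.084; edgeR adjusted p = 1.15e-06), and Cxcl5, a neutrophil chemokine gene, from 199, 209.5 and 199 to 445, 377 and 609 CPM (log2 1.24, SE 0.15). Ptgs2, of the prostaglandin-making enzyme COX-2, fell from 54.5, 55.2 and 67.2 to 14.9, 15.7 and 20.4 CPM (log2 −1.79, SE 0.14), and the alarmin gene Il33 from 281, 289 and 264 to 106, 164 and 158 CPM (log2 −0.96, SE 0.15). Il1a had 173 counts in the DMSO libraries together and 8 with Torin (count ratio 0.0473, 95% counting interval 0.0201 to 0.0954). Only 5 rose when a DMSO library, the first or the second, or a Torin library, the first or the second, was left out, and 9 fell without the third Torin library.

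Wnt pathway genes rose in 13 of 26 cases and none fell (median log2 0.641), with 8 rises without the first DMSO or without the second Torin library. The receptor genes Fzd1 (33.7, 43.2 and 33 to 91.5, 95.3 and 98.7 CPM; log2 1.38, SE 0.11) and Lgr6, of an R-spondin receptor (40.3, 42.8 and 39.2 to 94.8, 112 and 95.6 CPM; log2 1.31, SE 0.09), rose, as did the transcription factor gene Tcf7 (log2 1.05, SE 0.14) and the ligand gene Wnt5a (15.2, 17.2 and 15.1 to 26.5, 27.8 and 28.7 CPM; log2 0.81, SE 0.099). Sp5, a Wnt target of low level, rose (log2 2.28, SE 0.3), but Axin2, the common readout of the pathway, did not pass (log2 −0.023, SE 0.4).

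In the IGF family the ligand gene Igf1 fell from 108, 113 and 101 to 21.1, 19.8 and 18.3 CPM (log2 −2.44, SE 0.088; edgeR adjusted p = 3.62e-07) and the binding protein gene Igfbp3 rose (log2 0.94, SE 0.12; not past the threshold in the fit of all 12 libraries), with 3 rises and 3 falls among 12. The EGF family had 4 rises (2 without the first or without the second DMSO library) and 3 falls among 15: Nrg1, of neuregulin 1, rose (log2 0.71, SE 0.085), while the ligand genes Hbegf (55.5, 53.7 and 57.7 to 36.8, 32.4 and 37.3 CPM; log2 −0.65, SE 0.084) and Tgfa (log2 −0.63, SE 0.095) fell. ERK feedback genes had 1 rise (4 without the third and 2 without the first Torin library) and 5 falls among 17, with Dusp6, of an ERK phosphatase, not past the threshold (log2 −0.039, SE 0.1) and the factor gene Etv1 down (log2 −0.67, SE 0.1). In the Notch pathway Dll4, of a ligand, fell from 8.15, 8.1 and 7.83 to 0.457, 0.759 and 0.212 CPM (log2 −4.08, SE 0.33) and the target gene Hey1 from 239.8, 266 and 255 to 174, 175 and 178 CPM (log2 −0.53, SE 0.073), with 3 rises and 3 falls among 17. None of the Notch genes rose without the second DMSO library and 1 rose without any other library except the third Torin library. The BMP pathway had 5 rises and 2 falls among 17, with the inhibitor gene Grem1 down (34.1, 37.5 and 28.4 to 4.5, 4.93 and 9.32 CPM; log2 −2.41, SE 0.25) and the target gene Id4 up (16.9, 16.6 and 15 to 45.2, 45.7 and 39.4 CPM; log2 1.42, SE 0.098; not past the threshold in the fit of all 12 libraries), while Id1 fell (log2 −1.52, SE 0.29). The J6 Torin libraries, which enter that fit, varied widely in Id4 (mean 283 CPM, SD 396) and in Igfbp3 (mean 15.4 CPM, SD 12.2).

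TGF-beta ligands and response genes had 6 rises and 8 falls among 21. The response gene Tgfbi fell (46.6, 43 and 37.9 to 8.76, 7.44 and 11.3 CPM; log2 −2.21, SE 0.15), and Pmepa1, of a feedback inhibitor, rose (17.2, 16.6 and 18.7 to 50.1, 51.8 and 36.6 CPM; log2 1.40, SE 0.14). Matrix, cross-linking and protease genes fell in 17 of 29 cases and rose in 4 (median log2 −0.442; 2 rises without the first or second DMSO or the second Torin library). P4ha1, P4ha2 and Plod2 of this list are also counted in the hypoxia list. The largest falls were of enzymes that hydroxylate collagen: P4ha2 went from 129, 118 and 146 to 34.4, 25.8 and 32.9 CPM (log2 −2.08, SE 0.12), Plod1 from 105, 104 and 86.1 to 36.1, 36.7 and 49.2 CPM (log2 −1.27, SE 0.13) and P4ha1 from 165, 163 and 144 to 61.8, 59.7 and 85.8 CPM (log2 −1.19, SE 0.14). The laminin gene Lamb3 fell from 456, 425 and 451 to 243, 219.5 and 282 CPM (log2 −0.84, SE 0.1) and Lox, of a collagen cross-linker, fell (log2 −0.95, SE 0.16). Beside these, 3 of 18 fibroblast markers rose and 4 fell, Fbln1 most clearly (25.4, 27.4 and 30.3 to 11.3, 11.1 and 11.5 CPM; log2 −1.29, SE 0.11), while Col1a1 fell (log2 −0.42, SE 0.12) and Pdgfrb rose (log2 0.84, SE 0.14). Without the third DMSO or without the first Torin library 1 of these markers fell, and Col1a1 was no longer past the threshold. Without the first Torin library 5 rose. The part of fibroblasts in the matrix falls was not tested.

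Squamous genes, which build the cornified layer of skin, fell in 14 of 21 tested cases and rose in 2, all 16 at least 2-fold, with a median log2 of −1.98. Their summed CPM changed less than this median, from 1820, 1720 and 1990 with DMSO to 1350, 1280 and 1300 with Torin. Spink5, of a protease inhibitor of the epidermis, stood at 44.5, 37 and 40.7 CPM with DMSO and 4.27, 5.84 and 4.34 with Torin (log2 −3.08, SE 0.14; edgeR adjusted p = 1.59e-06). Cdsn, of the adhesion protein corneodesmosin, went from 49, 41.5 and 53.5 to 6.55, 7.14 and 5.05 CPM (log2 −2.94, SE 0.15), the stress keratin gene Krt16 from 21.1, 19.5 and 25 to 1.52, 2.28 and 2.22 CPM (log2 −3.44, SE 0.18) and Krtdap from 34.2, 27.3 and 31.1 to 2.36, 3.07 and 4.45 CPM (log2 −3.22, SE 0.21). Krt6a, another stress keratin gene, fell from 203, 178 and 242 to 36, 33.7 and 58.6 CPM (log2 −2.28, SE 0.21). Krt4 went the other way, as given above, and Lor, of the envelope protein loricrin, rose from a very low level (0.11, 0.177 and 0.22 CPM with DMSO, 0.571, 0.911 and 0.918 with Torin). Without the third Torin library 16 fell and 2 rose.

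Lineage markers of the mammary epithelium fell in part. Of 15 luminal progenitor markers 8 fell and none rose (median log2 −0.526). Trf, the transferrin gene, stood at 52032, 48224 and 54401 CPM with DMSO and 33629, 33099 and 28066 with Torin (log2 −0.71, SE 0.099), which was 4.72 to 5.26% and 2.91 to 3.45% of all counts. Ltf, of lactoferrin, fell from 33.4, 30.1 and 29.5 to 8.08, 9.68 and 11 CPM (log2 −1.69, SE 0.13), but Kit (log2 −0.095, SE 0.1) and Aldh1a3 (log2 0.18, SE 0.075) did not pass. Pan-luminal markers fell in 7 of 16 cases and none rose (11 falls and 2 rises without the third Torin library, 1 rise without the third DMSO library), with Epcam down from 1097, 1015 and 1101 to 551, 635 and 658 CPM (log2 −0.80, SE 0.09). Basal myoepithelial markers had 6 rises and 6 falls among 22: the keratin genes Krt5 (829.6, 799.8 and 839 to 378, 350.0 and 412 CPM; log2 −1.11, SE 0.085), Krt14 (log2 −0.95, SE 0.16) and Krt17 (log2 −1.92, SE 0.22) fell. Krt15 (log2 1.23, SE 0.17) and Oxtr, of the oxytocin receptor that drives milk ejection (22.1, 29.1 and 20.5 to 60.5, 69 and 62.7 CPM; log2 1.42, SE 0.13), rose, while the contractile gene Acta2 did not pass (log2 0.043, SE 0.1).

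Pgr, of the progesterone receptor, rose from 3.47, 3.29 and 2.94 to 12.3, 11.8 and 15.1 CPM (log2 2.01, SE 0.16; edgeR adjusted p = 3.24e-05), while Esr1, of estrogen receptor alpha, fell (log2 −0.50, SE 0.12). Greb1, an estrogen target, had 7 counts in the DMSO libraries together and 130 with Torin (count ratio 19, 95% counting interval 8.97 to 48.2). Of 21 estrogen response genes 7 rose and 3 fell, with the chemokine gene Cxcl12 up from 64.5, 72.8 and 65.7 to 181, 157 and 177 CPM (log2 1.34, SE 0.086), and of 13 hormone-sensing luminal markers 3 rose and 6 fell. Milk genes had 3 rises and 3 falls among 10: Cel, of bile salt lipase (0.475, 0.46 and 0.551 to 8.49, 6.57 and 9.99 CPM; log2 4.06, SE 0.25), and Lalba, of alpha-lactalbumin (log2 0.89, SE 0.18), rose, and Muc1, of a milk fat globule mucin (log2 −1.34, SE 0.13), and Xdh, of xanthine dehydrogenase (log2 −1.03, SE 0.079), fell. Csn2 and Wap, major milk protein genes, were too low to be tested.

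The J6 arm shows where J12 differs. Each arm has its own DMSO group, and the batch tag follows the arm, so a batch effect and the length of treatment cannot be told apart. Of 16936 genes tested in J6 alone, 15.5% rose and 18.1% fell. Among 16396 genes tested in both arms, 1208 rose in both, which is 50% of the J12 rises and 48.1% of the J6 rises. In the same genes 1705 fell in both, 63.2% of the J12 falls and 56% of the J6 falls. In a fit of all 12 libraries the Torin effect differed between arms for 1917 of 18112 genes (10.6%), higher in J12 for 911 (5.03%) and lower for 1006 (5.55%). Replicates varied less in J12, with a biological coefficient of variation of 13.5% against 24.2% in J6.

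Enpp2 had a J6 log2 of 4.75 and an arm difference of 0.21 (SE 0.33; edgeR adjusted p = 0.743). Several hypoxia genes fell less in J12: the difference was positive for 12 of 29 and negative for 1. Ndufa4l2 had a log2 of −2.86 in J12 and −8.64 in J6 (difference 5.76, SE 0.33), and Slc16a3 had −2.15 and −5.78 (difference 3.61, SE 0.17). Among 36 interferon response genes 9 differences were positive and none negative, and among 15 luminal progenitor markers 8 were positive and 2 negative. Fibroblast markers fell in 14 of 17 cases in J6 (median log2 −1.39) against 4 in J12 (median log2 0.149), and the difference was positive for 13. Krt5 fell less in J12 (−1.11 against −3.20; difference 2.07, SE 0.14).

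Other groups stood lower in J12 than in J6. The difference was negative for 17 of 23 p53 targets and positive for none, with Cdkn1a at −1.14 in J12 and 0.27 in J6 (difference −1.43, SE 0.14). It was negative for 15 of 51 lysosome genes and positive for 2, with Ctsh down in J12 (−0.79) and up in J6 (0.34). For cholesterol genes it was negative in 12 of 25 and positive in none, with Hmgcs1 at −0.66 and 0.034. Ribosome biogenesis genes rose in 41 of 46 cases in J12 and in 42 in J6, with a negative difference for 12 and a positive difference for none. Squamous genes had 8 negative differences and 1 positive, with Cdsn at −2.94 in J12 and −0.72 in J6 (difference −2.25, SE 0.24). Ltf fell in J12 (−1.69) and rose in J6 (2.57) (difference −4.28, SE 0.23; edgeR adjusted p = 1.85e-06).

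**Figure D5:**
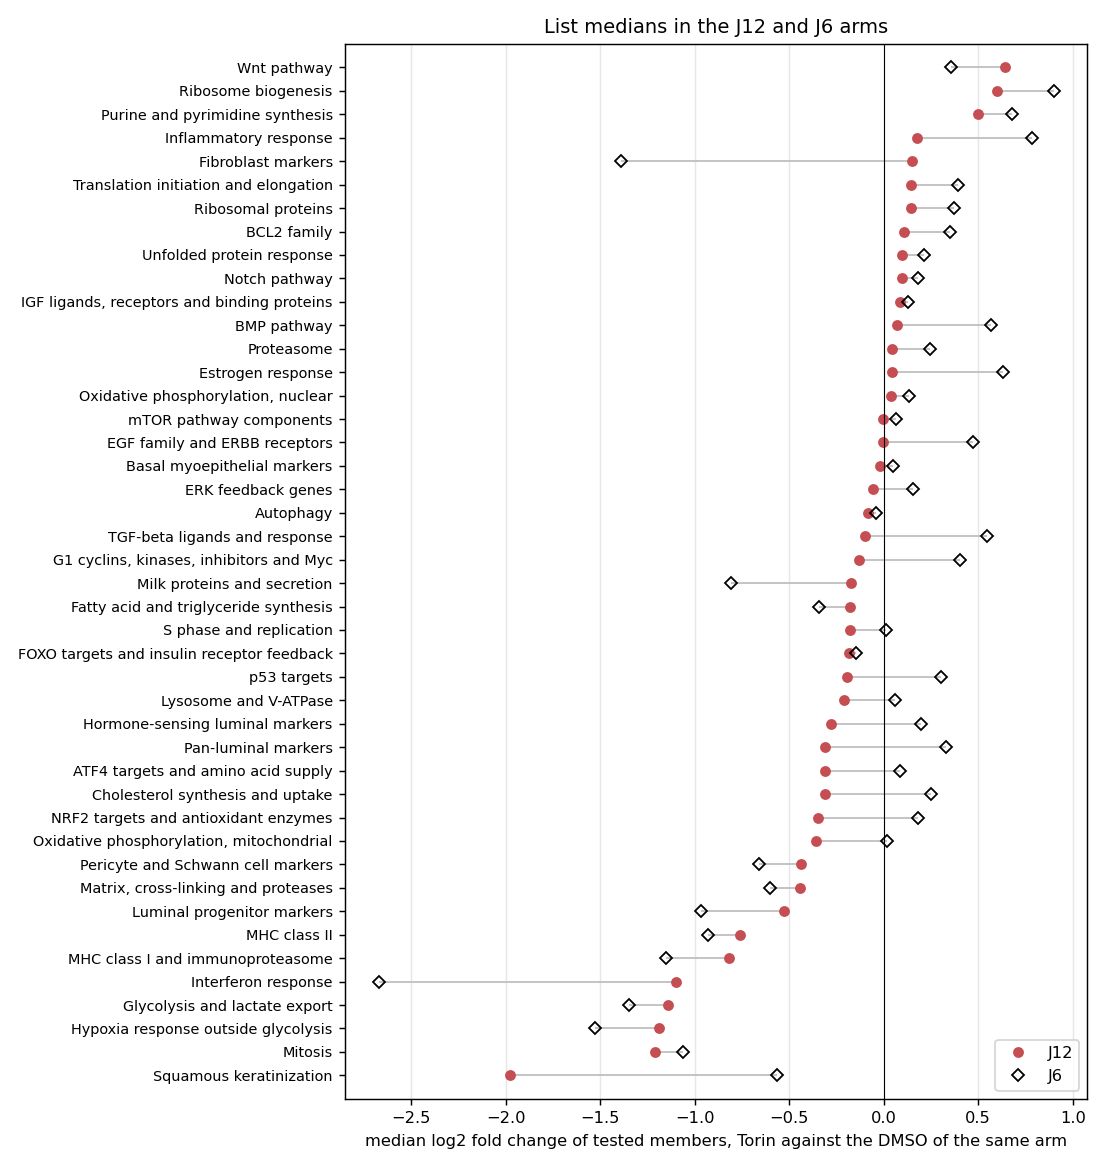
Median log2 fold change (horizontal axis) of the tested members of 44 gene lists with at least 7 tested members, in J12 (red circles) and in J6 (open diamonds), each against the DMSO libraries of its own arm. Glycolysis, hypoxia and mitosis lie to the left and ribosome biogenesis to the right in both arms, and the medians of the fibroblast list are −1.39 in J6 and 0.149 in J12.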

How the data were processed

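RNA of mammary organoids was sequenced as stranded libraries of polyadenylated RNA (NEBNext Ultra II). The authors deposited a table of counts per gene for 12 Torin and DMSO libraries and a table of normalized signal for the same libraries. Per the submitters' processing notes, the tools were Trim Galore, cutadapt, FastQC, MultiQC, kallisto and DESeq2 and the build GRCm39, with no versions or settings. The deposited counts are whole numbers, and how reads shared by near-identical genes were assigned is not stated, which bears on keratin, Sprr, MHC and ribosomal protein genes.

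The 6 J12 libraries were fitted with edgeR 4.0.16 in R 4.3.3 (filterByExpr, TMM, quasi-likelihood test, Benjamini-Hochberg adjustment over all genes tested, threshold 0.05). CPM used TMM-scaled totals. The difference between arms was a contrast over all 12 libraries. Other settings tried were RLE size factors, DESeq2 1.42.0, tests of all genes with a count, a floor of 1 CPM in 3 libraries, limma 3.58.1 on the deposited signal as log2(signal + 1) for means of 10 or more, a replicate block, all 12 libraries in 1 fit, stricter thresholds and leaving out each library. The tests were checked on simulated data. Counts of members cover those that passed the filter and are to be read against the shares of all genes tested.

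Members and lists were chosen with earlier results of these data known. Some genes stand in several lists (Sesn1, for example, in the mTOR, FOXO and p53 lists), so the list counts are not independent. Genes were named by rule: the 10 largest rises and falls with separate groups and a mean of at least 5 CPM, predicted genes left out, up to 4 members of each list with the lowest p, 13 genes of the mTOR pathway, and the 6 largest differences between arms each way. Other genes were chosen after their values were seen, and some genes are not reported here. Counting intervals (95%) cover counting error only. The promoter windows come from RefSeq GRCm38.p6, another build than that of the counts, and were matched by symbol.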

Additional observations from a re-analysis of the deposited data

Results flagged for a closer look

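The Torin effect differed between the arms J12 and J6 for 1917 genes in edgeR's test of the difference itself. The largest positive differences on the log2 scale, higher in J12, were of Ndufa4l2 (5.76, SE 0.33), Adora2a (4.51, SE 0.53), Mgarp (4.41, SE 0.27) and Slc16a3 (3.61, SE 0.17). These 4 genes fell in both arms and fell less in J12. Adora2a, of an adenosine receptor, had a log2 of −2.81 in J12 and −7.34 in J6, and Mgarp, of a mitochondrial protein induced by low oxygen, −2.34 and −6.77. Apod, of the lipid carrier apolipoprotein D, rose in J12 (1.62) and fell in J6 (−1.99), a difference of 3.59 (SE 0.25). Pcdh20, a protocadherin gene, did not pass in J12 (0.25) and fell in J6 (−3.29), a difference of 3.52 (SE 0.36).

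The largest negative differences were of Msln, of the surface protein mesothelin (−6.68, SE 0.54), Dynap (−5.25, SE 0.6), Soga3 (−4.85, SE 0.82), Akr1c18, of an enzyme that inactivates progesterone (−4.58, SE 0.22), Ltf (−4.28, SE 0.23) and Sod3, of the extracellular superoxide dismutase (−4.07, SE 0.34). Msln fell in J12 (−2.21) and rose in J6 (4.45), as did Dynap (−2.66 and 2.56), Akr1c18 (−2.05 and 2.51) and Ltf (−1.69 and 2.57). Soga3 (0.88 in J12) and Sod3 (−0.10 in J12) did not pass in J12 and rose in J6 (5.71 and 3.95). Each of these 12 differences was past the threshold under all alternatives that could be fitted, with adjusted p in the main edgeR test from 1.47e-06 to 0.00292. They were chosen as the largest differences in these same data, which favours this result.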

How the results depend on the processing

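The J12 count of 5186 genes was 5488 with DESeq2, 5175 with RLE size factors, 5719 without a low-count filter, 5111 with the stricter filter, 4521 with limma on the deposited signal and 4592 with all 12 libraries in 1 fit. It was 2939 at an adjusted p under 0.01 and 1425 with at least a 2-fold change, and ranged from 3410 (without the first DMSO library) to 6396 (without the third Torin library) when a library was left out. The J6 count of 5687 was 7088 with all 12 libraries in 1 fit and ranged from 3777 (without the third of its DMSO libraries) to 7452. The difference between arms, 1917 genes, was 842 at an adjusted p under 0.01 and 941 with at least a 2-fold difference, and ranged from 1219 (without the third J6 DMSO library) to 2307.

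Replicate numbers are shared by the groups, and the labels do not say whether they pair the samples. Deviations of same-numbered libraries correlated at −0.0459, −0.0345 and −0.137 in J12, and no J12 library correlated best with its own number. In J6 they correlated at 0.0565, −0.046 and 0.00773, and the first DMSO and first Torin libraries correlated best with each other. Such correlations cannot show whether samples were paired, and the main fits did not pair them. With the number as a replicate block, 3766 genes were called in J12, 4351 in J6 and 1010 for the difference, and 12 interferon genes fell.

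Of 235 J12 genes past the threshold that were chosen by the naming rule or named, 201 stayed past it in the same direction under all 13 other fits, 23 were lost without some library, and no called gene changed sign. Many of these genes were chosen for a low p or a large change in these same data, which favours this result. Of all J12 calls, a single fit shared from 64.4% (without the first DMSO library) to 99% (RLE size factors). Of 32 named genes not past the threshold, 10 passed in some of the other fits. For genes of few counts the depth limits the fold change.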

Other observations

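Genes under the mean of 5 CPM used for naming held several of the steepest changes of J12. Spink1, of a trypsin inhibitor, had 79, 51 and 45 counts in the DMSO libraries and 0 in each Torin library. Reg3g, of an antibacterial lectin of epithelia, had 59, 40 and 39 counts with DMSO and 4, 0 and 0 with Torin. Il24, of a cytokine of the IL-10 family, had 22, 24 and 24 counts with DMSO and 0, 0 and 1 with Torin. Nos2, of the inducible nitric oxide synthase, had 70, 57 and 74 counts with DMSO and 3, 0 and 2 with Torin. In J6 Spink1, Reg3g and Il24 also fell, while Nos2 had a log2 of −0.77 and did not pass. Among rises, Chrm2, of a muscarinic receptor, had 0, 1 and 0 counts with DMSO and 20, 33 and 14 with Torin, and Nalcn, of a sodium leak channel, had 0 in each DMSO library and 18, 15 and 21 with Torin. Pparg, of the lipid-sensing nuclear receptor, went from 2.16, 3.11 and 1.95 CPM with DMSO to 5.87, 7.59 and 7.13 with Torin (log2 1.51, SE 0.22). All of these genes were past the threshold of edgeR's test in J12 and were chosen after their values were seen.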
